A study of Mus musculus with 22 samples.

Results

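The receptors for serotonin, dopamine, noradrenaline and adrenaline, and histamine were examined in the hypothalamus of lean mice given celastrol, a plant triterpenoid, or its solvent DMSO. The members were taken by name: every probe set whose only gene symbol on the platform was that of a serotonin (Htr1 to Htr7), dopamine (Drd1 to Drd5), adrenergic (Adra1, Adra2, Adrb1 to Adrb3) or histamine (Hrh1 to Hrh4) receptor, whatever its level. This gave 25 probe sets for 25 genes, out of 20228 probe sets with exactly 1 symbol and 23492 in the whole table. They were 14 serotonin, 5 dopamine, 2 adrenergic (Adra1b and Adra2c) and 4 histamine receptors. The other adrenergic receptors were not analysed here.

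Celastrol had been injected into the abdomen of male C57BL/6J mice for 6 h (4 arrays), 1 day (3 arrays) or 4 days (3 arrays), and DMSO for 6 h, 1 day or 4 days (4 arrays each). All 22 arrays thus came from lean males, 8 weeks old and on normal chow for 2 weeks, and every animal received DMSO. The labels give 25 µl of DMSO a day for every group. A celastrol dose of 250 µg/kg stands in them beside the 6 h time alone, and an injected volume of 100 µl beside celastrol at the later times. Equal doses at the 3 times thus cannot be read from the labels. The labels call the arrays biological replicates without saying whether a sample was 1 animal or a pool. The arrays were Affymetrix whole-transcript arrays, and a value is the authors' RMA value, which is on the log2 scale and has no unit of molecules. Array medians lay between 8.58 and 8.66, and each array correlated with the others of its group at a mean r of 0.994 to 0.998. Of 17 listed genes of hypothalamic neurons, such as Pomc, Agrp and Hcrt, 16 were measured. Their mean level was 10.5 to 10.8 in every array. This does not test the tissue label, as no other tissue was there to compare.

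Monoamine transmitters are made by small groups of neurons, mostly in the brainstem and, for histamine and part of the dopamine, in the hypothalamus itself, and they reach most of the brain. Nearly all their receptors are coupled to G proteins: the Htr1, Htr5, Drd2, Drd3, Drd4, Adra2 and Hrh3 types act mainly through inhibitory G proteins that lower cyclic AMP, the Htr4, Htr6, Htr7, Drd1, Drd5 and Hrh2 types raise cyclic AMP, and the Htr2, Adra1 and Hrh1 types act through phospholipase C. The Htr3 subunits form an ion channel. In the hypothalamus Htr2c and Htr1b are known for their part in the restraint of feeding by serotonin. Hrh1 and Hrh3 are known there for appetite and wakefulness, and Drd2 as the autoreceptor of dopamine neurons.

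The bases just upstream of an annotated start are shown for 3 receptors on which the results turn: Htr1b, which had the smallest p of the 25 over the 3 times together, Drd5, which had the smallest p at a single time, and Drd2, which had the smallest p between DMSO groups. They are the 100 bases before the start in RefSeq on GRCm38.p6, 5′ to 3′ on the gene's own strand. Capitals mark the letters GGGCGG, a GC box, on either strand. The Htr1b stretch is chr9:81633833-81633932 (minus strand), the Drd5 stretch chr5:38319409-38319508 (plus strand) and the Drd2 stretch chr9:49340303-49340402 (plus strand).
Htr1b: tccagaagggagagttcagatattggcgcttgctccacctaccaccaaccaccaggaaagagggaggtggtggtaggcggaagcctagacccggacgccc
Drd5: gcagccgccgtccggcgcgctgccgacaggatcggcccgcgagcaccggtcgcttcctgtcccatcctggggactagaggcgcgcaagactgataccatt
Drd2: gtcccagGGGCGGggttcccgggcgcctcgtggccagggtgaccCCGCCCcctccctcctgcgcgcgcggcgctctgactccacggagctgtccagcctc

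Upstream windows of 250 bases were given for 21 of the 25 receptor genes, 29 windows in all. A GC box (GGGCGG, both strands) lay in 15 of these 29 windows, beside 32.7% of the 32851 windows of all genes. The 15 windows belong to 12 genes, namely Adra1b, Drd1, Drd2, Drd4, Drd5, Hrh1, Hrh2, Hrh3, Htr1a, Htr1d, Htr2a and Htr6. The letters TATAAA, the core of a TATA box, lay in 0 receptor windows and in 12.4% of all windows. The cyclic AMP response element TGACGTCA lay in 0 receptor windows and in 1.55% of all windows, and its shorter form TGACG, which the full element also contains, lay in 1 receptor window, that of Htr7, and in 17.8% of all windows. The STAT motif TTCNNNGAA lay in 1 receptor window, that of Drd3, and in 7.02% of all windows. AAAGGTCA, the site of NR4A nuclear receptors, lay in 0 receptor windows and in 1.34% of all windows. These are matches of letters on either strand and not tested sites.

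Of the 25 receptors, 10 exceeded the median of the array in 6 or more of the 12 DMSO arrays. Levels of different probe sets cannot be set against each other, so each receptor is described by its own spread. Of the serotonin receptors, Htr2c had a lowest, median and highest DMSO value of 11.2, 11.3 and 11.4. Htr2a, the other phospholipase C-coupled serotonin receptor above the median, read 10.5, 10.7 and 10.7. Htr1b, an inhibitory receptor found on axon endings, read 9.97, 10.1 and 10.2. All 3 lay above the median in 12 of 12 DMSO arrays. The cyclic AMP-raising Htr4 read 9.42, 9.54 and 9.63, and Htr7 read 8.55, 8.80 and 8.93. Htr5a, coupled to inhibitory G proteins, read 9.17, 9.25 and 9.43. Htr4 and Htr5a were above the median in 12 of 12 arrays and Htr7 in 11 of 12.

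Drd2 read 10.4, 10.6 and 10.9 as the lowest, median and highest DMSO value. Hrh3, the autoreceptor of histamine neurons, read 10.2, 10.3 and 10.4, and Hrh1 read 9.09, 9.25 and 9.34. Each of the 3 was above the median in 12 of 12 DMSO arrays, with Drd2 spread over the widest range of the 3. Adra1b sat at the median itself, with 8.57, 8.63 and 8.81, above it in 10 of 12 arrays. The dopamine receptor Drd1 read 8.23, 8.52 and 8.71 and was above the median in 2 of 12 DMSO arrays.

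The remaining 14 receptors were above the median in 0 of the 22 arrays: Htr1a, Htr1d, Htr1f, Htr2b, Htr3a, Htr3b, Htr5b, Htr6, Drd3, Drd4, Drd5, Adra2c, Hrh2 and Hrh4. Among them Htr1a, a major inhibitory autoreceptor of serotonin neurons, had DMSO values of 8.14 to 8.36, Drd5 of 8.25 to 8.59 and Hrh4, known from blood and immune cells, of 5.46 to 5.88. A low value on such an array does not say that a receptor is absent. The residual SD of a receptor within groups ran from 0.0518 for Adra1b to 0.210 for Hrh4, beside a median of 0.0973 over all probe sets. Only 11 receptors would pass a filter that asks for a value above the array's median in at least 3 arrays, so none was applied.

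**Figure D1:**
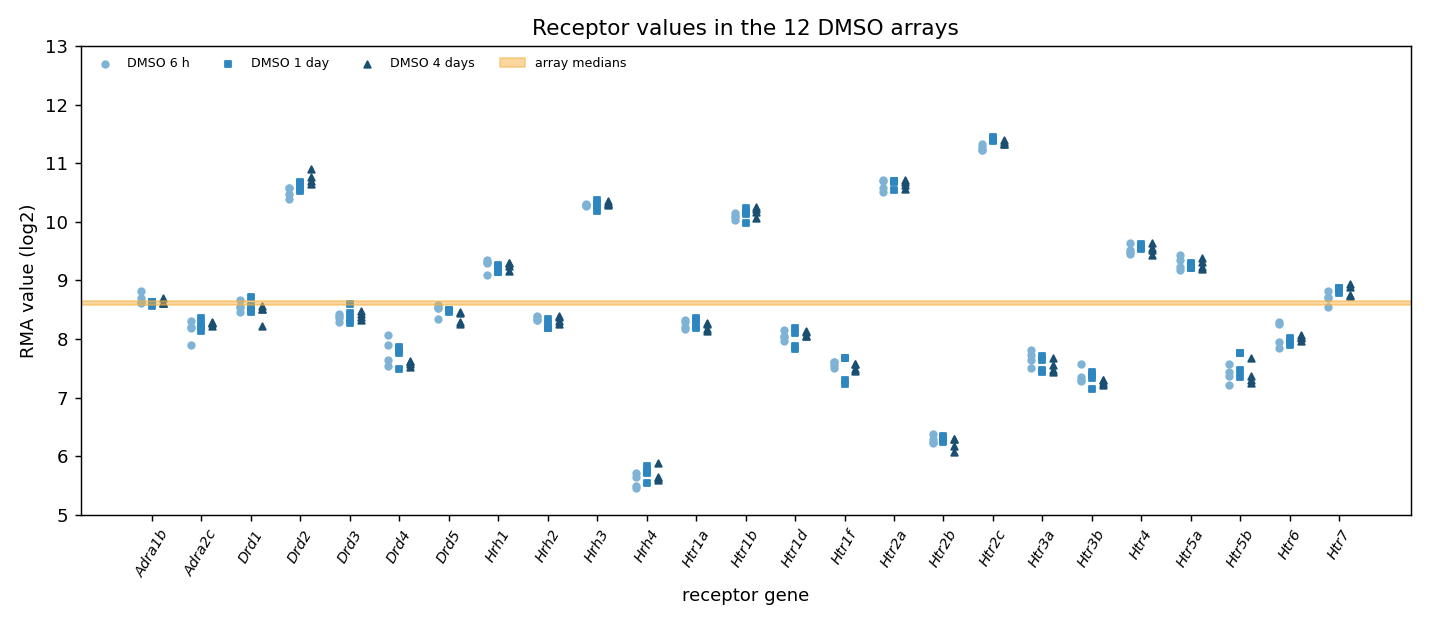
RMA values (log2, y axis) of the 25 receptors (x axis) in the 12 DMSO arrays, 1 point per array with 1 symbol per time; the band spans the medians of the 22 arrays (8.58 to 8.66). Htr2c, Htr2a, Htr1b, Drd2, Hrh3, Htr4, Htr5a and Hrh1 lie above the band in every DMSO array and Htr7 in most, while Adra1b lies mainly within it. Heights of different probe sets are not comparable as amounts.

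The first question was whether celastrol was accompanied by other receptor levels than DMSO at the same time. No receptor passed limma's test at a Benjamini-Hochberg adjusted p under 0.05 at 6 h, 1 day or 4 days, or over the 3 times together. At 6 h 0 of 25 passed (0% of all probe sets did) and 2 stood under an unadjusted p of 0.05, Htr1b higher and Drd5 lower, against 3.93% of all probe sets. At 1 day 0 of 25 passed (0.00494% of all probe sets) and 3 stood under an unadjusted p of 0.05, Htr1b and Hrh3 higher and Drd5 lower, against 5.57%. At 4 days 0 of 25 passed (0.00989%) and 1, Drd2, had an unadjusted p under 0.05, against 4.05%. For the equally weighted average of the 3 times 0 of 25 passed (0.0346%) and 3 stood under an unadjusted p of 0.05, Htr1b and Htr2a higher and Drd5 lower, against 3.55%.

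Over the 25 receptors together, the median celastrol minus DMSO difference was -0.0035 at 6 h with 12 above 0, 0.040 at 1 day with 17 above 0, and 0.010 at 4 days with 15 above 0. Over all probe sets, 52.1% lay above 0 at 6 h, 49.9% at 1 day and 56.0% at 4 days, with a median difference of 0.0034, -0.00029 and 0.0097 in the same order of times. The average of the 3 times was above 0 for 18 of 25 receptors (median 0.0096), beside 54.1% of all probe sets (median 0.0038). These medians moved when 1 array was left out in turn. At 6 h they ran from -0.0071 to 0.036 (highest without the fourth DMSO replicate of 6 h). At 1 day they stayed above 0, at 0.00082 to 0.053 (lowest without the second DMSO replicate of 1 day). At 4 days they ran from -0.016 to 0.034 (lowest without the second DMSO replicate of 4 days). The median of the average ran from 0.0037 to 0.036, highest without the first celastrol replicate of 1 day. By family, the average was above 0 for 11 of 14 serotonin, 3 of 5 dopamine, 1 of 2 adrenergic and 3 of 4 histamine receptors. Those above 0 include Htr2b, Htr3a, Htr4, Htr5a, Htr5b and Hrh4, each of a sign that changed under at least 1 other setting of the fit.

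**Figure D2:**
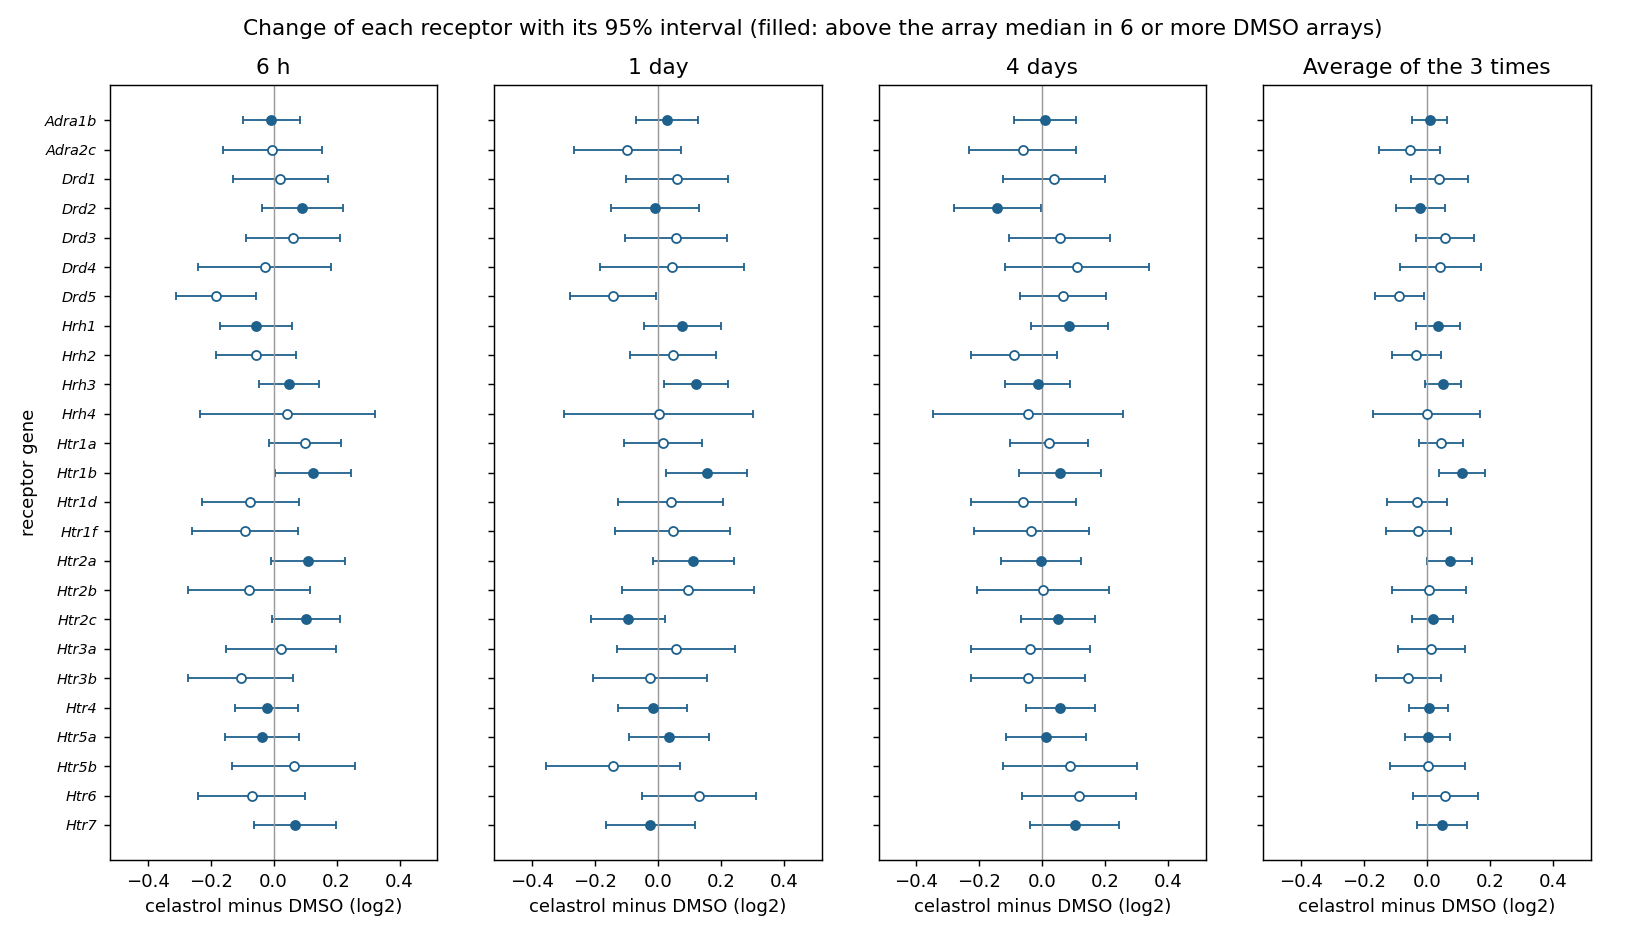
Celastrol minus DMSO for the 25 receptors (rows) at 6 h, 1 day, 4 days and as the average of the 3 times, in log2 units (x axis); points are limma estimates, bars 95% intervals, and filled points are receptors above the array median in 6 or more DMSO arrays. Estimates run from -0.18 to 0.15, and no receptor had an adjusted p under 0.05.

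Each interval states what sizes of change the arrays leave possible for 1 receptor, not for several receptors jointly. Over the 10 receptors above the median in at least 6 DMSO arrays, the outermost 95% bounds of the celastrol minus DMSO difference were -0.17 and 0.25 at 6 h, -0.21 and 0.28 at 1 day, and -0.28 and 0.24 at 4 days. For the average of the 3 times they were -0.098 and 0.19. A miss of the threshold does not show that the receptors were equal in both treatments. As the tissue is a mixture of cells, fewer cells that carry a receptor and less receptor RNA per cell cannot be told apart.

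Htr1b (probe set 10595324), the inhibitory serotonin receptor on axon endings, came nearest to a difference over all times. At 6 h it read 10.27, 10.19, 10.26 and 10.15 in celastrol arrays, against 10.10, 10.04, 10.15 and 10.07 in DMSO arrays. At 1 day it read 10.35, 10.24 and 10.25 in celastrol arrays, against 9.97, 10.24, 10.13 and 10.16 in DMSO arrays. At 4 days it read 10.21, 10.33 and 10.14 in celastrol arrays, against 10.22, 10.06, 10.25 and 10.17 in DMSO arrays. The groups overlapped by 1 array each at 6 h, did not overlap at 1 day, where the nearest arrays were both 10.24 at 2 decimals, and overlapped widely at 4 days. The difference was 0.13 (SE 0.058) at 6 h, 0.15 (SE 0.062) at 1 day and 0.056 (SE 0.062) at 4 days. The 4-day value was 0.0041 without the second celastrol replicate and 0.0997 without the third.

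Averaged over the times, Htr1b was higher by 0.11 (SE 0.035, 95% interval 0.039 to 0.19), a fold of 1.08, and 9 of 10 celastrol arrays exceeded the time-matched DMSO mean. The limma p was 0.00454 and the adjusted p over all probe sets 0.850. An exact permutation of the labels within each time gave p = 0.0037, two-sided, for this receptor alone. At single times the exact permutation p was 0.0571 at 6 h, 0.0571 at 1 day and 0.486 at 4 days, where the smallest possible value is 0.0286. Without the first DMSO replicate of 1 day, the array at 9.97, the difference at 1 day was 0.10 (adjusted p = 0.815 by limma).

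Htr2a (10416406), a phospholipase C-coupled receptor, had the same sign at the first 2 times. It read 10.64, 10.65, 10.83 and 10.80 in celastrol arrays at 6 h, against 10.58, 10.50, 10.71 and 10.69 in DMSO arrays. At 1 day it read 10.80, 10.77 and 10.73 in celastrol arrays, against 10.70, 10.70, 10.53 and 10.68 in DMSO arrays. At 4 days it read 10.58, 10.68 and 10.66 in celastrol arrays, against 10.68, 10.56, 10.71 and 10.63 in DMSO arrays. All 3 celastrol arrays of 1 day lay above all 4 DMSO arrays, while the groups overlapped at 6 h and 4 days. The average difference was 0.073 (SE 0.035), with 9 of 10 celastrol arrays on that side, a limma p of 0.0483, an adjusted p of 1.00 and an exact permutation p of 0.0412.

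Htr2c (10602261), the serotonin receptor best known for the restraint of feeding, had differences of opposite sign at 6 h and 1 day. In celastrol arrays it read 11.30, 11.35, 11.35 and 11.47 at 6 h, 11.18, 11.41 and 11.35 at 1 day, and 11.30, 11.43 and 11.48 at 4 days. In DMSO arrays it read 11.22, 11.28, 11.33 and 11.22 at 6 h, 11.44, 11.40, 11.42 and 11.37 at 1 day, and 11.36, 11.33, 11.39 and 11.32 at 4 days. The DMSO arrays of 1 day were all above those of 6 h, and the first celastrol array of 1 day was the lowest of the 22. The difference between celastrol and DMSO was 0.10 (SE 0.052) at 6 h, -0.095 (SE 0.056) at 1 day and 0.050 (SE 0.056) at 4 days. Without the first celastrol replicate of 1 day, the 1-day difference was -0.029.

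The change in the Htr2c difference, 1 day minus 6 h, was -0.20 (SE 0.076, 95% interval -0.36 to -0.039) with a limma p of 0.0169 and an adjusted p of 0.752. Of the 25 receptors 0 passed in this test of the times (0% of all probe sets) and 1, Htr2c, had an unadjusted p under 0.05, against 6.58% of all probe sets. Leaving out that celastrol replicate gave -0.13 (adjusted p = 0.475), and leaving out the fourth celastrol replicate of 6 h gave a 6 h difference of 0.068.

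Htr7 (10467182), a receptor that raises cyclic AMP and is known for its part in circadian timing, was named for its 4-day values. In celastrol arrays it read 8.63, 8.79, 8.78 and 8.86 at 6 h, 8.84, 8.72 and 8.90 at 1 day, and 8.99, 8.86 and 8.93 at 4 days. In DMSO arrays it read 8.55, 8.71, 8.82 and 8.71 at 6 h, 8.86, 8.78, 8.87 and 8.87 at 1 day, and 8.75, 8.73, 8.89 and 8.93 at 4 days. The groups overlapped at every time. The 4-day difference was 0.10 (SE 0.068), with a limma p of 0.146, an adjusted p of 1.00 and an exact permutation p of 0.257.

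The dim Htr6 read 8.18, 8.04 and 8.03 in celastrol arrays at 1 day, against 7.95, 7.96, 7.89 and 8.01 in DMSO arrays, without overlap. Its difference of 0.13 had an interval of -0.052 to 0.31. In all, the celastrol and DMSO arrays of 1 day did not overlap for 4 of 25 receptors, with Htr1b, Htr2a and Htr6 higher and Drd5 lower, beside 5.31% of all probe sets. At 6 h this held for 0 of 25 (2.65%). At 4 days it held for 1 of 25, Drd4 (6.08%), whose values were 7.67, 7.68 and 7.74 in celastrol arrays and 7.63, 7.57, 7.53 and 7.60 in DMSO arrays.

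Htr4 and Htr5a had average differences of 0.0063 (95% interval -0.055 to 0.068) and 0.0029 (-0.068 to 0.074), and both signs turned when single arrays were left out. The difference of Htr1a was 0.10 at 6 h (limma p 0.0799) and 0.046 as the average (interval -0.024 to 0.12). The ion channel subunits Htr3a and Htr3b were below the array median throughout, and Htr3b had an average difference of -0.058 (interval -0.16 to 0.043). That difference was -0.025 without the third celastrol replicate of 1 day and -0.088 without the second.

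**Figure D3:**
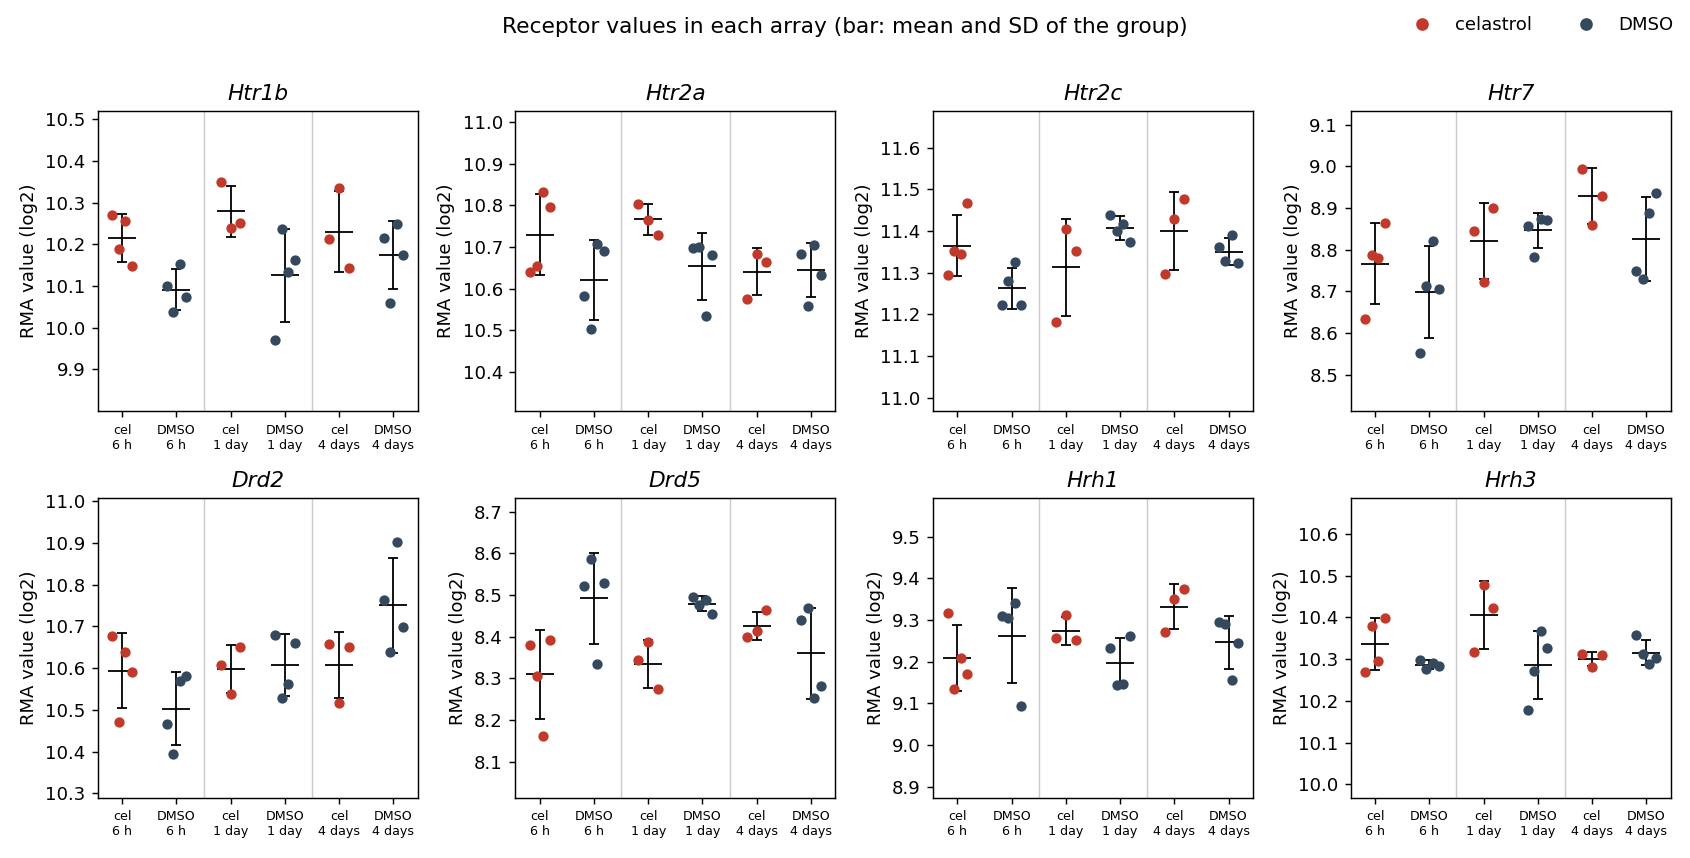
RMA values (log2, y axes with their own origin) of 8 receptors, 1 point per array, by treatment and time (x axes). The 8 are the receptors named with all values, each for its rank by p within a time-matched celastrol comparison or the average. Long bars are group means and short bars 1 SD. Htr1b lies higher in celastrol arrays at 6 h and 1 day, Drd5 lower at 6 h and 1 day but not at 4 days, and Drd2 highest in the DMSO arrays of 4 days.

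Drd5 (10521583), a dopamine receptor that raises cyclic AMP, was lower with celastrol at 6 h and 1 day without passing the test, and it was below the array median in all 22 arrays. At 6 h it read 8.38, 8.31, 8.16 and 8.39 in celastrol arrays, against 8.52, 8.59, 8.34 and 8.53 in DMSO arrays. At 1 day it read 8.34, 8.39 and 8.27 in celastrol arrays, against 8.50, 8.48, 8.49 and 8.45 in DMSO arrays. At 4 days it read 8.40, 8.41 and 8.46 in celastrol arrays, against 8.44, 8.47, 8.25 and 8.28 in DMSO arrays. The third DMSO array of 6 h fell among the celastrol arrays, the groups of 1 day did not overlap, and those of 4 days did.

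The Drd5 difference was -0.18 (SE 0.061) at 6 h, with a limma p of 0.00659, an adjusted p of 0.998 and an exact permutation p of 0.0857. It was -0.14 (SE 0.065) at 1 day, with a limma p of 0.0393, an adjusted p of 0.861 and an exact permutation p of 0.0286. It was 0.065 (SE 0.065) at 4 days (0.029 without the third DMSO replicate) and -0.087 (SE 0.037) as the average, for which 7 of 10 celastrol arrays lay on that side (limma p 0.0280, adjusted p 1.00, exact permutation p 0.0512). The difference at 4 days minus that at 6 h was 0.25 (SE 0.089, limma p 0.0112, adjusted p 0.999), and 4 days minus 1 day gave 0.21 (limma p 0.0345, adjusted p 0.882). In these tests between times, 0 of 25 receptors passed for 4 days minus 6 h (0% of all probe sets), where Drd2 and Drd5 had an unadjusted p under 0.05 (3.63% of all probe sets), and 0 passed for 4 days minus 1 day (0%), where Drd5 did (5.62%).

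Drd2 (10585169), which couples to inhibitory G proteins, had its smallest p between DMSO groups, not between celastrol and DMSO. At 6 h it read 10.68, 10.47, 10.64 and 10.59 in celastrol arrays, against 10.47, 10.39, 10.57 and 10.58 in DMSO arrays. At 1 day it read 10.61, 10.54 and 10.65 in celastrol arrays, against 10.68, 10.53, 10.56 and 10.66 in DMSO arrays. At 4 days it read 10.66, 10.52 and 10.65 in celastrol arrays, against 10.76, 10.64, 10.90 and 10.70 in DMSO arrays. The celastrol arrays stayed within one band at all 3 times, while the DMSO arrays of 4 days were all above those of 6 h.

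Celastrol minus DMSO was 0.092 (SE 0.062) for Drd2 at 6 h, -0.0095 (SE 0.067) at 1 day, of a sign that turned when single arrays were left out, and -0.14 (SE 0.067, 95% interval -0.28 to -0.0036) at 4 days. The 4-day limma p was 0.0449, the adjusted p 1.00 and the exact permutation p 0.171, and without the third DMSO replicate, the array at 10.90, the difference was -0.092. The 4-day minus 6 h change of the difference was -0.23 (SE 0.091, limma p 0.0179, adjusted p 0.999). These comparisons share the DMSO arrays of 4 days and 6 h with the comparison of DMSO groups that follows.

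The DMSO groups themselves give the spread over time without celastrol. For 4 days minus 6 h, 0 of 25 receptors passed (0.00989% of all probe sets) and 2, Drd2 higher and Drd5 lower, stood under an unadjusted p of 0.05, against 11.6% of all probe sets. For 1 day minus 6 h, 0 passed (0%) and 2, Htr2c and Htr7, both higher, had an unadjusted p under 0.05, against 9.25%. For 4 days minus 1 day, 0 passed (0.00494%) and 1, Drd2, did so, against 9.97%. DMSO arrays of 4 days and 6 h did not overlap for 1 receptor, Drd2 (6.05% of all probe sets), those of 1 day and 6 h for 1, Htr2c (4.44%), and those of 4 days and 1 day for 0 (6.83%).

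In DMSO arrays Drd2 was 0.25 higher at 4 days than at 6 h (SE 0.062, 95% interval 0.12 to 0.38), a fold of 1.19. The limma p was 6.45e-04, the adjusted p 0.181, and the exact permutation p 0.0286, the smallest that 4 against 4 arrays can give. It was 0.14 higher at 4 days than at 1 day (limma p 0.0311, adjusted p 0.454), and without the third replicate of 4 days that difference was 0.092. Htr2c was 0.15 higher at 1 day than at 6 h (SE 0.052, limma p 0.0106, adjusted p 0.409, exact permutation p 0.0286) and Htr7 was 0.15 higher (SE 0.063, limma p 0.0281, adjusted p 0.474).

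In DMSO arrays, 2 genes of dopamine neurons differed between 4 days and 6 h in the same direction as Drd2, without passing the test. Slc6a3 (10406050), the dopamine transporter, read 11.33, 10.70, 11.90 and 11.07 in DMSO arrays at 4 days, against 8.50, 9.59, 9.97 and 10.79 at 6 h. Th (10569370), tyrosine hydroxylase, read 11.46, 11.23, 11.87 and 11.35 in DMSO arrays at 4 days, against 10.48, 10.91, 10.95 and 11.09 at 6 h. The third DMSO array of 4 days was the highest of its group for Drd2, Slc6a3 and Th alike, while at 6 h the lowest DMSO array was the second for Drd2 and the first for Slc6a3 and Th. The DMSO difference of 4 days minus 6 h was 1.54 (SE 0.39, limma p 6.71e-04, adjusted p 0.181) for Slc6a3 and 0.62 (SE 0.15, limma p 3.20e-04, adjusted p 0.131) for Th. Celastrol minus DMSO at 4 days was -0.79 for Slc6a3 (limma p 0.0701, adjusted p 1.00) and -0.35 for Th (limma p 0.0381, adjusted p 1.00).

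Across the 22 arrays, after the mean of each group was taken off, Drd2 correlated with Slc6a3 at Pearson's r 0.773 and Spearman's rho 0.866, and with Th at r 0.807 and rho 0.819. The permutation p within groups, adjusted over the 4 relations computed, was 9.6e-04 for both r values, and 2.8e-04 and 6.8e-04 for the rho values with Slc6a3 and Th. Without the 2 arrays farthest from the median of the other gene, r was 0.857 for Slc6a3 and 0.808 for Th (20 arrays). For Drd1 and Ppp1r1b, a gene of striatal neurons, r was 0.498, rho 0.425 and the adjusted p of r 0.0769, with r 0.418 without the 2 farthest arrays. For Htr2c and Ttr, a gene of the choroid plexus, where Htr2c is abundant, r was 0.372, rho 0.344 and the adjusted p of r 0.102, with r 0.272 without them. The Ttr values were dim, at 6.93 to 7.62 and below the array median in every array, which limits what this r can show. These 4 pairs were chosen after values had been seen, and the part of the other genes in the receptor differences was not tested.

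**Figure D4:**
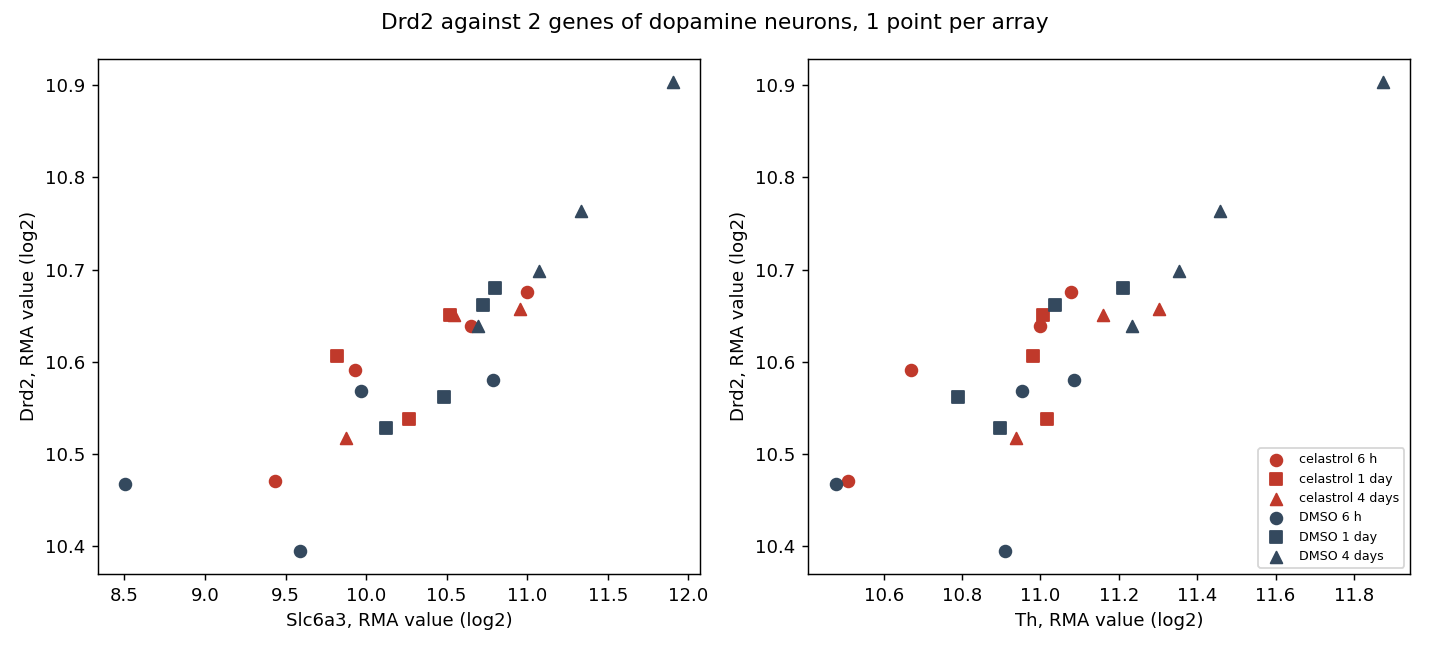
Drd2 (y axes) against Slc6a3 (left) and Th (right), both as RMA values (log2), 1 point per array with colour for treatment and shape for time. Arrays high in Drd2 tend to be high in both dopamine neuron genes, with exceptions among the lower arrays, and the DMSO array of 4 days at a Drd2 value of 10.90 is at the top right of both plots.

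A list of midbrain dopamine neuron genes, added after those values had been seen, was measured for 14 of 15 genes. Its mean level per array was 8.77 to 9.24 in celastrol arrays at 6 h, 8.91 to 9.10 at 1 day and 8.86 to 9.16 at 4 days. In DMSO arrays it was 8.67 to 9.13 at 6 h, 8.96 to 9.23 at 1 day and 9.05 to 9.56 at 4 days. For DMSO at 4 days minus 6 h, 0 of 14 genes passed, 9 stood under an unadjusted p of 0.05, each of them higher, beside 11.6% of all probe sets, and the median difference was 0.34. The transcription factors Pitx3, Foxa1, Foxa2 and Lmx1b of the same list had differences of -0.14, -0.03, -0.08 and -0.12. For celastrol minus DMSO at 4 days, 0 of 14 passed, 3 had an unadjusted p under 0.05, all lower, beside 4.05% of all probe sets, and the median was -0.16. The list's part in the Drd2 difference was not tested.

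Of the 2 adrenergic receptors, Adra1b, which acts through phospholipase C, had an average difference of 0.0096 (95% interval -0.046 to 0.065). Adra2c, an inhibitory autoreceptor, had -0.055 with a wider interval (-0.15 to 0.041). Both intervals included 0. Adra1b read 8.68, 8.64, 8.67 and 8.74 in celastrol arrays at 6 h, against 8.81, 8.61, 8.70 and 8.63 in DMSO arrays. The groups overlapped for both receptors at every time.

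Among the histamine receptors, Hrh3 (10490378), which restrains the release of histamine, had its smallest p at 1 day. In celastrol arrays it read 10.27, 10.38, 10.30 and 10.40 at 6 h, 10.32, 10.48 and 10.42 at 1 day, and 10.31, 10.28 and 10.31 at 4 days. In DMSO arrays it read 10.30, 10.28, 10.29 and 10.28 at 6 h, 10.18, 10.27, 10.37 and 10.33 at 1 day, and 10.36, 10.31, 10.29 and 10.30 at 4 days. The groups overlapped at every time. The 1-day difference was 0.12 (SE 0.049, 95% interval 0.018 to 0.22, limma p 0.0238, adjusted p 0.861, exact permutation p 0.143). Without the second celastrol and the first DMSO replicate of 1 day, the 2 arrays that correlated least with their groups, it was 0.048.

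Hrh1 (10540855), the phospholipase C-coupled histamine receptor, read 9.32, 9.14, 9.21 and 9.17 in celastrol arrays at 6 h, 9.26, 9.31 and 9.25 at 1 day, and 9.27, 9.35 and 9.37 at 4 days. In DMSO arrays it read 9.31, 9.30, 9.34 and 9.09 at 6 h, 9.23, 9.14, 9.15 and 9.26 at 1 day, and 9.30, 9.29, 9.16 and 9.24 at 4 days. The 4-day difference was 0.086 (SE 0.059, limma p 0.163, adjusted p 1.00, exact permutation p 0.171), the groups overlapped at every time, and without the third DMSO replicate of 4 days the difference was 0.056. Hrh2, which raises cyclic AMP, had an average difference of -0.033 (interval -0.11 to 0.044). Hrh4, the most variable of the 25 within groups, had 0.00046 (-0.17 to 0.17), with a sign that turned when single arrays were left out.

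The enzymes and transporters that make, move and break down monoamines were measured for 18 of 20 listed genes. Of these 0 passed in the average of the 3 times (0 at an unadjusted p under 0.05, beside 3.55% of all probe sets), 7 of 18 lay above 0, beside 54.1%, and the median was -0.0040. Slc6a4, the serotonin transporter, had an average difference of -0.085 (SE 0.053, limma p 0.123, adjusted p 1.00) and Th of -0.12 (SE 0.088, limma p 0.175, adjusted p 1.00). In DMSO at 4 days minus 6 h 0 of 18 passed and for 9 the unadjusted p was under 0.05, with 6 of these higher and 3 lower, beside 11.6% of all probe sets.

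The G proteins, adenylyl cyclases, phosphodiesterases, kinases and arrestins downstream of the receptors were measured for 37 of 42 listed genes. In the average 0 passed, 1 had an unadjusted p under 0.05, beside 3.55% of all probe sets, 22 of 37 lay above 0, beside 54.1%, and the median was 0.0032. Pde10a, a phosphodiesterase abundant in striatal neurons, had an average difference of -0.072 (SE 0.028, limma p 0.0188, adjusted p 1.00), with 10 of 10 celastrol arrays below the time-matched DMSO mean. Prkar2b, a regulatory subunit of protein kinase A, had -0.057 (SE 0.029, limma p 0.0668, adjusted p 1.00). At 6 h 30 of 37 lay above 0 (median 0.020), beside 52.1% of all probe sets, at 1 day 14 of 37 (median -0.0076), beside 49.9%, and at 4 days 19 of 37 (median 0.0056), beside 56.0%.

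Markers of neighbouring tissue differed between single arrays. The mean of the pituitary genes per array ran from 7.14 to 9.11 in celastrol arrays and from 7.05 to 9.42 in DMSO arrays, and that of the thalamus genes from 9.79 to 10.51 in celastrol arrays and from 9.84 to 10.46 in DMSO arrays. The choroid plexus genes ran from 7.57 to 7.81 in celastrol arrays and 7.63 to 7.78 in DMSO arrays, and the striatum genes, which include Drd1 and Drd2 themselves, from 9.84 to 10.03 in celastrol arrays and from 9.84 to 10.02 in DMSO arrays. Astrocyte genes ran from 11.55 to 11.76 in celastrol arrays and from 11.48 to 11.65 in DMSO arrays. At 1 day the astrocyte ranges did not overlap, with 11.648 to 11.685 in celastrol arrays, against 11.607 to 11.646 in DMSO arrays. Oligodendrocyte genes ran from 11.79 to 11.97 in celastrol arrays and from 11.74 to 11.93 in DMSO arrays. Genes of vessel cells ran from 9.21 to 9.41 in celastrol arrays and from 9.21 to 9.43 in DMSO arrays. Microglia genes were at 9.21 to 9.30 in celastrol arrays of 6 h, against 9.18 to 9.22 in DMSO arrays of 6 h. At 1 day they were at 9.19 to 9.21 in celastrol arrays, against 9.17 to 9.26 in DMSO arrays. The microglia ranges thus overlapped at 6 h and 1 day. They did not overlap at 4 days, with 9.35 to 9.39 in celastrol arrays, against 9.15 to 9.28 in DMSO arrays. Of all single probe sets, 5.31% did not overlap between the treatments at 1 day and 6.08% at 4 days. The differences of these list means were not tested. The part of these tissues and cells in the receptor values was not tested.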

How the data were processed

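RNA of the hypothalamus was labelled with biotin and measured on Affymetrix arrays, per the labels' protocols. The deposited values are log2 RMA values per probe set for 22 arrays, and RMA is named in the submitters' processing notes; for its version and probe set annotation, nothing was stated in the sources used here. The method subtracts background, applies quantile normalization and combines the probes of a set. Symbols came from the platform annotation (1 symbol for 20228 of 23492 probe sets, several for 1399, none for 1865). Values ran from 3.83 to 15.2, no 2 arrays were identical, and 0 columns belonged to other series. Arrays have no read depth; their number limits the precision.

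Groups came from the labels. The 20228 probe sets of all 22 arrays were fitted together, with a mean for each of 6 groups, with limma 3.58.1 in R 4.3.3 (lmFit, eBayes; 16 residual and 4.66 prior degrees of freedom), with no level filter; tests were two-sided and p-values Benjamini-Hochberg adjusted over all probe sets, with a threshold of 0.05. Exact permutation tests of single receptors used Python 3.11.15 and SciPy 1.17.1. The fit was tested on simulated data. P-values measure the spread between these arrays only.

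Members, lists and tests were chosen with earlier results of these data known. Receptors were named with all values where they had 1 of the 3 smallest p-values in a time-matched comparison or the average, and with DMSO levels where above the array median in at least 6 DMSO arrays; Htr6 and Drd4 were named after their values were seen, as groups without overlap. From each pathway list, the 2 genes with the smallest p in the average were named, and Slc6a3 after its values were seen. Cell marker lists covered hypothalamic neurons, pituitary, choroid plexus, striatum, thalamus and glial and vessel cells. Alternatives changed the level filter, the probe sets tested, the normalization, the variance prior, array weights, the replicate block, the arrays and the samples fitted. Sequences are from RefSeq (GRCm38.p6).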

Additional observations from a re-analysis of the deposited data

Results flagged for a closer look

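Values of the 8 receptors given array by array were checked for a single array far from the rest in each of the 4 groups of 4 arrays, 32 checks in all, of which chance alone would single out about 1 in 20. Htr2a in the DMSO group of 1 day had its lowest array at 10.53, far below the other 3 at 10.68 to 10.70. Hrh1 in the DMSO group of 6 h had its lowest array at 9.09, far below the other 3 at 9.30 to 9.34.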

How the results depend on the processing

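The number of receptors called was 0 in every comparison under each planned or added setting but 1. With limma's array weights, whose estimation stopped before it converged and gave 1 celastrol array of 1 day a weight of 23.5, 3 receptors were called at 1 day: Drd5 (-0.20, adjusted p 0.0114), Hrh3 (0.11, adjusted p 0.0322) and Htr3b (-0.20, adjusted p 0.0493), among 1570 probe sets. With weights estimated gene by gene, an alternative added after seeing the data, the largest weight was 5.30, 0 receptors were called and their adjusted p-values were 0.114, 0.200 and 0.295. As reported, these 3 differences were -0.14, 0.12 and -0.024 (Htr3b, limma p 0.781), and the same weights gave Htr1b 0.094 at 1 day, against 0.15 as reported. In 18 pairs of receptor and comparison followed with their adjusted p, those with the smallest p and the named time differences of Drd2, Drd5 and Htr2c, no sign changed. Over all 25 receptors the sign of celastrol minus DMSO changed under at least 1 setting for 7 at 6 h, 13 at 1 day, 9 at 4 days and 6 in the average. Htr1b kept an average of 0.092 to 0.13 (adjusted p 0.319 to 1.00) and Drd2 a DMSO difference of 4 days minus 6 h of 0.20 to 0.29 (adjusted p 0.0731 to 0.463). Neither pathway list had a call in the average under any setting. The count of all probe sets called moved more, and the cause was not tested. The count at 1 day (1 as reported) was 0 with the level filter and without the 2 least typical arrays, 3 with quantile normalization and 19 with gene-by-gene weights. At 4 days (2 as reported) it was 0 with the level filter or the 2 groups alone, 1 with quantile normalization, 4 without the 2 least typical arrays, 6 with limma-trend, 9 with array weights and 12 with gene-by-gene weights. In the average (7 as reported) it was 17 with array weights and 16 gene by gene, and with array weights the differences between times gave 3 (1 day minus 6 h) and 22 (4 days minus 1 day), against 0 each. For DMSO at 4 days minus 6 h (2 as reported) it was 30 with the level filter, 11 with every probe set of the table, 1 with 1 probe set per gene, 30 with limma-trend and 6 with either kind of weights. For DMSO at 4 days minus 1 day (1 as reported) it was 17 with the level filter, 0 with median centring or without the 2 least typical arrays, 13 with limma-trend and 3 with either kind of weights. Leaving out each array in turn gave 0 to 2 at 1 day, 1 to 5 at 4 days, 3 to 10 in the average, 0 to 11 for DMSO at 4 days minus 6 h and 0 to 2 for 4 days minus 1 day.

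Replicate numbers did not pair the samples: of 10 same-numbered pairs 2 had deviations that correlated over 0.1 (range -0.44 to 0.39), and 2 of 22 arrays correlated best with their own number. With the replicate number as a block 0 receptors were called, and all probe sets called were 3 at 1 day and 1 at 4 days. Dim signal limits the 15 receptors that were above the array median in fewer than 6 DMSO arrays.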
